A study of Rattus norvegicus with 30 samples.

Results

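Rat bone marrow mesenchymal stem cells (BMSCs) were compared between 3 h and 12 h of chondrogenic induction. The comparison used the 3 samples labelled CH_3h and the 3 labelled CH_12h, 6 of the 30 samples of the series. The cells were bone marrow mesenchymal stem cells of Sprague Dawley rats. The methods give 3 female donors aged 3 weeks, cells at passage 2 in monolayer, and a commercial chondrogenic differentiation medium, which both groups received. In the other samples the same cells were taken before induction (CON, 0 h), at 72 h of chondrogenesis (CH_3d), or after 3 h, 12 h or 72 h in osteogenic (OS) or adipogenic (AD) medium. For each sample 3 cultures were pooled, the labels do not tie a sample to an animal, and no cells kept without induction until 3 or 12 h were used here. The p-values therefore measure only the spread between samples of a group, estimated over all 30 samples, and time in the medium cannot be told apart from time in culture.

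In chondrogenesis, BMSCs leave the stromal state and become cells that secrete a matrix of type II collagen, aggrecan and hyaluronan, under the transcription factor (TF) Sox9 and ligands of the TGF-beta family. Proliferating cells load the MCM helicase on DNA in G1, copy their DNA and make new histones in S phase, and then express the kinesins, cyclins and centromere proteins of mitosis. Matrix proteins pass through the endoplasmic reticulum (ER), where collagen is hydroxylated and folded, and leave it in COPII-coated vesicles.

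The values were CPM, reads scaled to a library of 1000000 reads, from which whole reads were recovered, with no correction for gene length. The 6 libraries held 6312409 to 8135015 reads, of which the listed genes took 61.3 to 67.2%, and 3 reads, the floor used here, stood for 0.369 to 0.475 CPM. Some transcripts that every cell uses were nearly missing from the table. Actb, cytoskeletal actin, had a mean of 1.11 CPM at 3 h and 1.73 CPM at 12 h, Vim, the filament protein vimentin, had 1.02 and 0.867 CPM, and Pfn1 was listed at 0. A value near 0 was therefore not read as absence of the transcript. Some libraries of the other media stood apart from their group. Taking pairs of samples of a group, the chi-square of their reads over genes per degree of freedom was 3.23 to 18.3 in the chondrogenic groups of 3 and 12 h, 64.8 and 75.2 for the third 3 h osteogenic sample against 3.44 for the other pair, and 42.6 and 42.2 for the first 12 h adipogenic sample against 3.26. The comparisons with other media are therefore also given without these libraries. The third 72 h adipogenic sample (71.2 and 76.2, against 6.22) entered only the shared estimate of the spread. That estimate, drawn from all 30 samples, also entered the SE and p-value of the chondrogenic change. Among the markers of BMSCs, Itgb1 (9024 and 9574 CPM), Thy1 (6029 and 4364 CPM) and Cd44 (993 and 538 CPM) were the highest, whereas Vcam1 and Twist1 were listed at 0 in all 6 samples. Of 20 stromal markers 10 were listed, and 5 of these reached 1 CPM in 3 or more of the 30 samples. The summed level of the 10, which came mostly from Itgb1, Thy1 and Cd44, was 15500 to 17000 CPM at 3 h and 12800 to 16600 CPM at 12 h. The summed levels of leukocyte and macrophage markers (7 of 23 listed, 2.83 to 3.15 CPM at 3 h and 2.69 to 3.74 CPM at 12 h), endothelial markers (7 of 14 listed, 2.10 to 3.69 and 2.22 to 2.60 CPM) and erythroid markers (4 of 14 listed, 0.294 to 1.20 and 0.951 to 1.44 CPM) were near 0 at both times, with Mrc1, Esam, Erg, Sox17 and Slc4a1 at 0.

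From 3 to 12 h more genes fell than rose, and the genes of DNA replication and mitosis made up 37 of the 259 falls and none of the rises. Of 4363 tested genes, 335 (7.68%) were called, that is, changed by 1 log2 unit or more with an adjusted p under 0.05 in limma, of which 76 (1.74%) rose and 259 (5.94%) fell. On 334 of them the 3 samples of one time did not overlap those of the other, against 1749 of all tested genes (40.1%). Log2 fold changes were taken between log2(CPM + 1) values, and the added 1 makes those of low genes too small. Of the falls, 148 had a mean of at least 10 CPM at 3 h and 52 were at least 2 log2 units, whereas 38 of the rises reached 10 CPM at 12 h and 11 were that large. At 12 h, 34 of the falls had no sample over 3 reads, and at 3 h this held for 8 of the rises. The balance of rises and falls depended on the scaling. With quantile normalization, which moved the median of all genes up by 0.10, 133 genes rose (3.05%) and 215 fell (4.93%), with median-ratio scaling 101 rose (2.31%) and 222 fell (5.09%), and with edgeR on the recovered reads 144 rose (3.3%) and 275 fell (6.3%), so that 22.7% of the calls were rises on CPM and 38.2%, 31.3% and 34.4% under these alternatives.

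**Figure D1:**
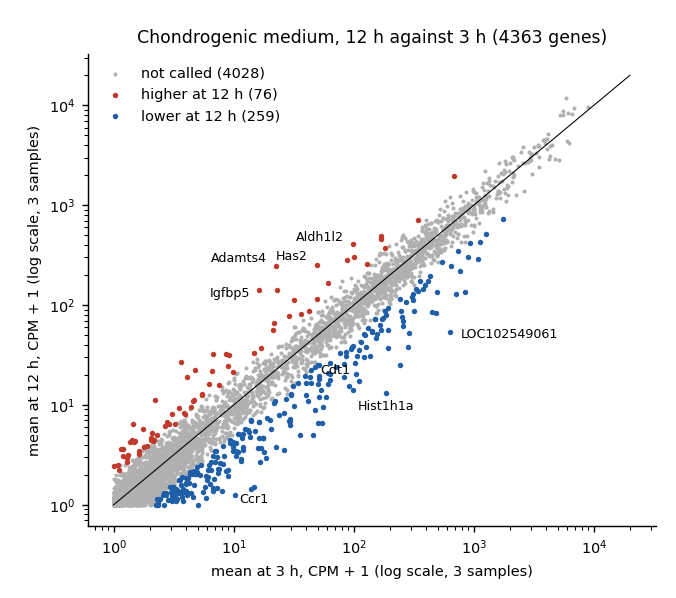
Mean CPM + 1 at 12 h (vertical axis) against 3 h of chondrogenesis (horizontal axis), both on log scales, with 1 point for each of 4363 tested genes and the line of equal values. Red points are the 76 genes that rose and blue points the 259 that fell, and the falls include Hist1h1a and LOC102549061, which lie far below the line.

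The 15 largest rises and the 15 largest falls were picked among called genes whose 3 h and 12 h samples did not overlap. Separation of the samples was thus set by the choice of these genes. On the log2(CPM + 1) scale the largest rise was that of Adamts4, an aggrecanase that cleaves the cartilage proteoglycan aggrecan. It was at 23.7, 20.7 and 20.5 CPM in the 3 h samples and 226, 292 and 219.7 CPM in the 12 h samples. Every 12 h sample was far above every 3 h sample, and the mean was 11.4-fold higher (log2 fold change 3.44, SE 0.15, adjusted p = 2.46e-16). Igfbp5, which binds insulin-like growth factors outside the cell, went from 13.2, 17.0 and 15.9 CPM to 139, 149 and 138 CPM (log2 fold change 3.14, SE 0.74, adjusted p = 0.00193). Its 3 samples lay close together at both times and did not overlap. The SE was drawn from the spread in all groups, among them the 12 h adipogenic samples at 767, 166 and 174 CPM. Has2, the hyaluronan synthase that extrudes the polysaccharide through the cell membrane, stood at 49.2, 47.1 and 48.6 CPM and later at 253, 237 and 256 CPM (log2 fold change 2.34, SE 0.27, adjusted p = 6.70e-08). The 2 sets of samples were tight and 5.15-fold apart in mean.

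Other secreted and matrix genes were among the 15 largest rises. Lama1, the alpha chain of laminin-111, rose from 7.34, 9.69 and 6.02 CPM to 32.6, 33.3 and 27.4 CPM (log2 fold change 1.90, SE 0.31, adjusted p = 2.15e-05). Plau, the urokinase that activates plasminogen, rose from 8.69, 8.37 and 7.25 CPM to 28.9, 34.7 and 27.6 CPM (log2 fold change 1.78, SE 0.33, adjusted p = 0.000131). In both genes the lowest 12 h sample was well above the highest 3 h sample. Lrrc17, a secreted leucine-rich repeat protein, rose from 1.65, 0.587 and 1.35 CPM to 11.3, 11.1 and 8.24 CPM (log2 fold change 2.37, SE 0.27, adjusted p = 5.20e-08), and Fndc5, the precursor of irisin, from a mean of 5.58 CPM to 20.7 CPM (log2 fold change 1.74, SE 0.30, adjusted p = 6.38e-05), a call lost with a pseudocount of 0.1 (1.89, adjusted p = 0.066).

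Receptors, transporters and enzymes were also among them. Ptgir, the prostacyclin receptor, was at 32.7, 32.0 and 27.2 CPM at 3 h and 103, 123 and 109.8 CPM at 12 h (log2 fold change 1.84, SE 0.24, adjusted p = 7.49e-07). Aldh1l2, a mitochondrial enzyme of folate metabolism, was at 96.4, 96.6 and 102 CPM and then at 379.7, 444 and 388 CPM (log2 fold change 2.03, SE 0.38, adjusted p = 0.000136). In both the 3 samples of each time agreed within a narrow range that did not touch the other. The remaining genes were lower in level: Plxdc2, a transmembrane protein, rose 9.77-fold to a mean of 25.8 CPM, Slc2a13, the proton-coupled myo-inositol transporter, rose 5.39-fold to 31.1 CPM, Rnf144a, an E3 ubiquitin ligase, rose 5.74-fold to 17.9 CPM, Mab21l3 rose 5.65-fold to 21.2 CPM, and Gem, a small GTPase that inhibits calcium channels, rose 12.3-fold to 5.47 CPM. Their adjusted p-values ran from 4.36e-08 for Mab21l3 to 7.73e-05 for Rnf144a. Gem was at 0.450, 0.147 and 0.738 CPM at 3 h, 10 reads in all, so the size of its ratio is uncertain.

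On the log2(CPM + 1) scale the largest fall was that of Hist1h1a, a linker histone. It was at 202, 180.3 and 176 CPM in the 3 h samples and at 13.3, 12.6 and 10.3 CPM in the 12 h samples, 15.4-fold lower in mean (log2 fold change -3.84, SE 0.19, adjusted p = 1.74e-15). The gene listed as LOC102549061, whose promoter lies on chromosome 17 in assembly GRCr8, as does that of Hist1h1a, went from 660.2, 618 and 607 CPM to 52.1, 53.3 and 51.8 CPM (log2 fold change -3.56, SE 0.26, adjusted p = 1.09e-11). In both, all 12 h samples were far below every 3 h sample. Cell-cycle regulators followed. Ccnf, cyclin F, a substrate receptor of an SCF ubiquitin ligase, fell from 271, 308 and 267 CPM to 35.8, 38.8 and 35.6 CPM (log2 fold change -2.90, SE 0.17, adjusted p = 7.52e-14). Cdt1, which loads the MCM helicase at replication origins, fell from 116, 111 and 104 CPM to 15.2, 20.6 and 13.1 CPM (log2 fold change -2.71, SE 0.18, adjusted p = 1.43e-12). Aunip, a partner of Aurora A kinase, fell from a mean of 25.5 CPM to 2.53 CPM (log2 fold change -2.92). The samples of these genes stayed far apart between the times.

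Several large falls were not cell-cycle genes. Ccr1, a chemokine receptor, was at 16.6, 15.3 and 9.59 CPM at 3 h and 0.433, 0 and 1.11 CPM at 12 h (log2 fold change -3.32, SE 0.28, adjusted p = 1.49e-10). Slco2a1, the prostaglandin transporter, had 12.7, 13.7 and 12.3 CPM and then 0.578, 0.467 and 0.317 CPM (log2 fold change -3.26, SE 0.48, adjusted p = 5.00e-06). Trim54, a muscle RING-finger protein, had 9.74, 10.4 and 7.74 CPM and then 0, 0.312 and 0.475 CPM (log2 fold change -3.04, SE 0.19, adjusted p = 3.64e-13), and with 5 reads in all at 12 h its ratio was 36.2 (95% counting interval 15.2 to 113). None of the 3 exceeded 1.11 CPM in a 12 h sample. Trim17, an E3 ubiquitin ligase, fell from 251, 239 and 241 CPM to 27.2, 26.3 and 18.2 CPM (log2 fold change -3.32, SE 0.19, adjusted p = 6.89e-14). Mn1, a transcriptional coregulator, fell from 93.4, 107 and 91.8 CPM to 8.96, 15.4 and 14.7 CPM (log2 fold change -2.84, SE 0.26, adjusted p = 1.23e-09). Neither gene overlapped between the times, as the choice of the largest falls required.

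**Figure D2:**
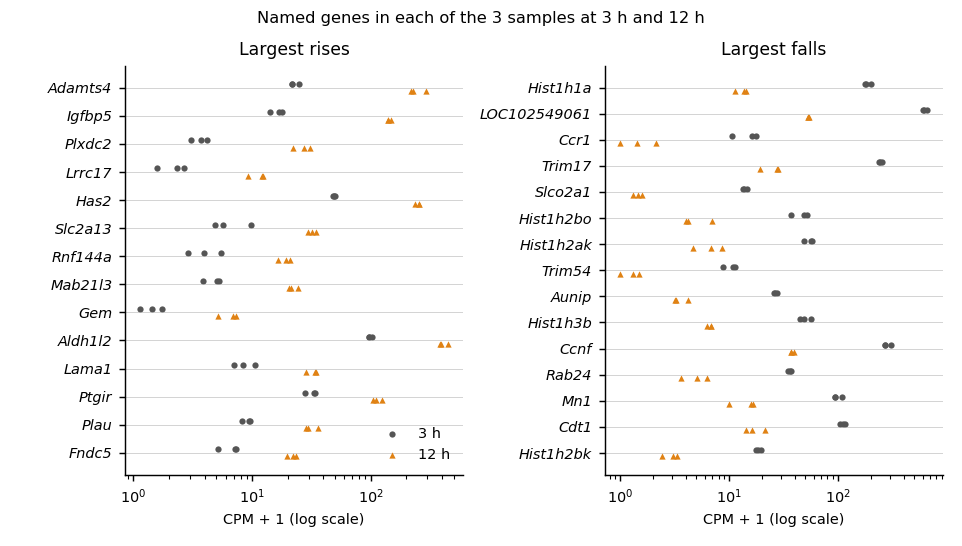
Genes among the 15 largest rises (left) and the 15 largest falls (right) of those whose samples did not overlap, with CPM + 1 on a log axis and 1 point for each of 3 samples at 3 h (grey circles) and 12 h (orange triangles). In each gene shown the circles and triangles stay apart, as the choice of genes required.

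Counts of calls within gene lists are to be read against the 1.74% of all tested genes that rose and the 5.94% that fell, and signs against 1860 of all 4363 log2 fold changes above 0 and 2471 below. Of 75 genes of DNA replication 42 were in the table and 23 were tested, of which 13 fell and none rose, with a median log2 fold change of -1.28 against -0.07 over all tested genes. The MCM helicase unwinds DNA ahead of the polymerases. Its subunit Mcm6 went from 700.2, 752 and 673 CPM to 128, 139 and 117 CPM (log2 fold change -2.46, SE 0.12, adjusted p = 1.01e-15), and Mcm3 from 486, 497 and 466 CPM to 83.8, 88.2 and 74.8 CPM (log2 fold change -2.54, SE 0.16, adjusted p = 3.09e-13). They were 5.54-fold and 5.88-fold lower in mean, with no overlap, and Mcm4 fell from a mean of 494 CPM to 135 CPM (log2 fold change -1.86). Gins1 (-2.26) and Gins3 (-1.93), subunits of the GINS complex that joins the helicase, fell as well. Of the origin and helicase genes 6 of 9 tested fell, and of the polymerase, clamp-loader and nucleotide genes 7 of 11, whereas none of 3 tested regulators of G1 and S phase was called. The second group held Asf1b (-2.13), a histone chaperone, the clamp-loader subunits Rfc4 (-1.74), Rfc2 (-1.35) and Rfc3 (-1.29), the single-strand binding protein Rpa2 (-1.42), the polymerase delta subunit Pold3 (-1.28) and Tyms (-1.25), thymidylate synthase, each value a log2 fold change. Rrm1, the large subunit of ribonucleotide reductase, missed the size threshold with 849.7 and 431 CPM (log2 fold change -0.98), and Cdkn2a, which encodes the inhibitors p16 and p19, had 0.42 and 1.47 CPM (log2 fold change 0.77, SE 0.30, adjusted p = 0.0668). With edgeR 13 fell as well and Cdkn2a was called higher (log2 fold change 1.87, adjusted p = 0.0448).

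Of 33 tested mitosis genes (78 on the list, 41 in the table) 24 fell and none rose, and the median log2 fold change was -1.49. Kif11, the kinesin that pushes spindle poles apart, was at 439, 406 and 503 CPM at 3 h and 87.1, 80.6 and 85.5 CPM at 12 h (log2 fold change -2.39, SE 0.17, adjusted p = 4.10e-12). Cdc20, the activator of the anaphase-promoting complex, was at 317, 350.1 and 290.1 CPM and then at 85.8, 88.5 and 84.1 CPM (log2 fold change -1.87, SE 0.26, adjusted p = 1.99e-06). Kif20a, a kinesin of cytokinesis, was at 778, 792 and 721 CPM and then at 219.7, 217 and 221 CPM (log2 fold change -1.80, SE 0.20, adjusted p = 5.02e-08). The 12 h samples of each of these genes were far below its lowest 3 h sample. Among the other motors and spindle proteins, Kif22 (-2.06), Nuf2 of the outer kinetochore (-1.89), Hmmr (-1.72), Tpx2 (-1.98) and Ckap2 (-2.58) fell on the log2 scale. Top2a, the topoisomerase that untangles chromosomes, fell from 17.5, 15.4 and 14.6 CPM to 2.31, 2.80 and 3.01 CPM (log2 fold change -2.19, SE 0.24, adjusted p = 3.45e-08), and Birc5, the survivin subunit of the chromosomal passenger complex, from a mean of 121 CPM to 29.0 CPM (log2 fold change -2.03). The smallest of the 24 falls were those of Cenpn (-1.01), Cenpt (-1.01) and Bub3 (-1.02), and these calls were lost with quantile normalization (-0.92, -0.94 and -0.85) and median-ratio scaling (-0.91, -0.91 and -0.92), those of Cenpn and Cenpt with an equal sum over listed genes (-0.97 and -0.96), and those of Cenpt (adjusted p = 0.0650) and Bub3 (-0.99) with edgeR. They were also lost without single libraries. Cenpn was not called without the first or the third 3 h sample (-0.87, adjusted p = 0.0699, and -0.98, adjusted p = 0.0416) or without the second or the third 12 h sample (-0.77, adjusted p = 0.1, and -0.99, adjusted p = 0.0383). Cenpt was not called without the second or the third 3 h sample (-0.97, adjusted p = 0.0409, and -0.93, adjusted p = 0.0475) or the second 12 h sample (-0.74, adjusted p = 0.103). Bub3 was not called without the first 12 h sample (-0.75, adjusted p = 0.15) or without any one of the 3 h samples (adjusted p = 0.0608, 0.0535 and 0.0516).

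The list of 23 histone names in the table was made after their values had been seen, and gives no support of its own. Of 18 tested, 11 fell, none rose, all 18 log2 fold changes were below 0, and the median was -1.66. The falls covered each class of histone. Hist1h2ao, an H2A gene, went from 859, 839.7 and 834 CPM to 137, 163 and 104 CPM (log2 fold change -2.66, SE 0.16, adjusted p = 1.30e-13). Hist1h2bo (-3.22) and Hist1h2bk (-2.68) encode H2B, Hist1h2ak (-3.07) encodes H2A, Hist1h3b (-2.91) and Hist2h3c2 (-2.54) encode H3, Hist2h4 (-1.66) encodes H4, and Hist1h1e (-1.65) is a linker histone like Hist1h1a. Histone genes exist in near-identical copies between which reads could be split in ways not given in the sources used here, so the value of a single copy is uncertain. Most of these mRNAs also lack a poly(A) tail, and the sources differ on the library, which the labels describe as depleted of ribosomal RNA and the methods as an mRNA library.

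Short promoter stretches are shown for 9 of the falls as examples of motifs searched for, and these genes were picked because their promoters hold the motifs. RefSeq promoters of GRCr8, 250 bases before to 50 after the annotated start, matched 3353 of the tested genes, 3206 by symbol and 147 by an older symbol, among them 53 of the rises and 207 of the falls. The E2F core GCGGGAA, read on both strands, was present in 10 of 18 promoters of DNA replication genes (55.6%) and in 7.69% of all 3353, and its letters stand in capitals in the last 120 bases before the start of 3 genes, of the GINS complex, the clamp loader and the single-strand binding protein.
Gins3 (chr19:9434680-9434799, minus strand): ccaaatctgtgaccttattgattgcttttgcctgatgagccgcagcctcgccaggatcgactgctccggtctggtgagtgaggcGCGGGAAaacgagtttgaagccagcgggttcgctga
Rfc4 (chr11:91254153-91254272, plus strand): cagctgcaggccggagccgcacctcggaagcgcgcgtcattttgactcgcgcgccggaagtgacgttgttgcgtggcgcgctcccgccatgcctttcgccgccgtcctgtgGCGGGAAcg
Rpa2 (chr5:150260652-150260771, plus strand): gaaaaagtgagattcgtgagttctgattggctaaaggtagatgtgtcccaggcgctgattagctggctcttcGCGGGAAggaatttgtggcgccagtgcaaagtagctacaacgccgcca

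The cell-cycle genes homology region (CHR), TTTGAA on either strand, was in 18 of 27 promoters of mitosis genes (66.7%) against 11.5% of all promoters, and the CCAAT box, CCAAT on either strand, in 19 of 27 (70.4%) against 36.7%. Both are in capitals in the promoters of an activator of anaphase, a spindle protein and a topoisomerase.
Cdc20 (chr5:137255800-137255919, minus strand): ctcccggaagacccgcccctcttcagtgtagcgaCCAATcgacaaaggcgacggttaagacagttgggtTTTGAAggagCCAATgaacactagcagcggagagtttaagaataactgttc
Hmmr (chr10:25665216-25665335, minus strand): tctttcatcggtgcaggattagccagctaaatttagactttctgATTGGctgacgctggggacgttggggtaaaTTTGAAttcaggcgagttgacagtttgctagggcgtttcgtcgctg
Top2a (chr10:84473094-84473213, minus strand): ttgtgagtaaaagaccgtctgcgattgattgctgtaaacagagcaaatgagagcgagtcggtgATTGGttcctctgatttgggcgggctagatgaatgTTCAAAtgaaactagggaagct

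In histone promoters the TATA box, TATAAA on either strand, was in 10 of 15 (66.7%) against 7.99% of all promoters, and the CCAAT box in 14 of 15 (93.3%). Capitals mark both motifs in the promoters of the histone genes Hist1h1a and Hist1h2ak and of LOC102549061, which is not on the histone list and is not counted in these shares, and in all 3 the TATA box begins 33 bases before the start.
Hist1h1a (chr17:41794869-41794988, minus strand): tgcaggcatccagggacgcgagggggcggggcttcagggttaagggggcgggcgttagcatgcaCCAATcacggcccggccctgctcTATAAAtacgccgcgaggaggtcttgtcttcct
Hist1h2ak (chr17:47496128-47496247, minus strand): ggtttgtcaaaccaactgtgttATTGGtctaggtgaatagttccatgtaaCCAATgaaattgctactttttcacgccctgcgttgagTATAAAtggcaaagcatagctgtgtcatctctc
LOC102549061 (chr17:41807793-41807912, plus strand): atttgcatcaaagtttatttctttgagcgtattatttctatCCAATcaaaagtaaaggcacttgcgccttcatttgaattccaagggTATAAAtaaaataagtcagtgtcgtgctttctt

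Over all falls, 28 of 207 promoters held the E2F core (13.5%) and 47 held the CHR (22.7%), and of the 53 promoters of rises these were in 0 and 8 (15.1%). The E2F core and the CHR were added after the lists' values had been seen. Shares of further motifs are given for rises, falls and all promoters in this order. The AP-1 site TGANTCA was in 3.77%, 4.35% and 5.31% of them, the glucocorticoid receptor site AGAACA in 15.1%, 9.18% and 12.8%, the Smad site CAGAC in 56.6%, 47.8% and 48.3%, the CRE core TGACG in 28.3%, 28.5% and 30.9%, the E-box CACGTG in 7.55%, 3.86% and 8.80%, the TEAD site GGAATG in 11.3%, 9.18% and 11.0%, and the CArG box in 0%, 1.93% and 1.10%. The ER stress element was in none of the rises, 0.483% of the falls, 0.209% of all promoters and 5 of 47 promoters (10.6%) of the ER folding genes described further on. A match is a description of the letters, not a site in use, and motifs of 5 letters occur in a large share of any promoters.

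Some of these genes rose in osteogenic medium between the same times. Leaving out the histones, whose list was made after their values had been seen, 56 genes of DNA replication and mitosis were tested, and their median log2 fold change from 3 to 12 h was -1.39 in chondrogenesis, 0.74 in osteogenesis and 0.26 in adipogenesis. In osteogenesis 20 of the 56 rose and none fell, against 4.7% and 3.12% of all tested genes, and 18 of them were among the 37 that fell in chondrogenesis. Without the third 3 h osteogenic sample the median was 0.72, with 18 rises, 17 of them among the 37. In adipogenesis 1 rose and 1 fell, against 5.13% and 7.82% of all tested genes. Without the first 12 h adipogenic sample the median was 0.20, with 2 rises and 1 fall, and the rises numbered 5 and 4 without the second or the third 12 h sample, 0 without the first 3 h sample and 3 without the second or the third. The difference between the changes was itself tested. The change in chondrogenesis was below that in osteogenesis for 43 of the 56 genes, against 448 of all tested genes (10.3%), and below that in adipogenesis for 35, against 346 (7.93%), whereas it was above for none. Without the library that stood apart in each medium these counts were 42 and 35 below and again 0 above. Mcm6, for example, was at 466, 401 and 464 CPM at 3 h and 1181, 1246 and 1209 CPM at 12 h of osteogenesis, and at 402, 413 and 457 and 483, 395 and 394 CPM in adipogenesis. Its change thus differed in direction between chondrogenesis and osteogenesis (difference -3.91, SE 0.17, adjusted p = 7.73e-17, and -3.95 without the third 3 h osteogenic sample), and the adipogenic samples overlapped between the times. Before induction these genes were low, with a median over the 56 genes of 2.51 CPM at 0 h, 11.8 CPM at 3 h, 2.75 CPM at 12 h and 4.28 CPM at 72 h of chondrogenesis. At 3 h the median was 8.24 CPM in osteogenesis and 9.36 CPM in adipogenesis, and at 12 h it was 19.0 and 10.5 CPM. Of the 18 histone genes 7 rose and none fell in osteogenesis, and 1 rose and 1 fell in adipogenesis.

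**Figure D3:**
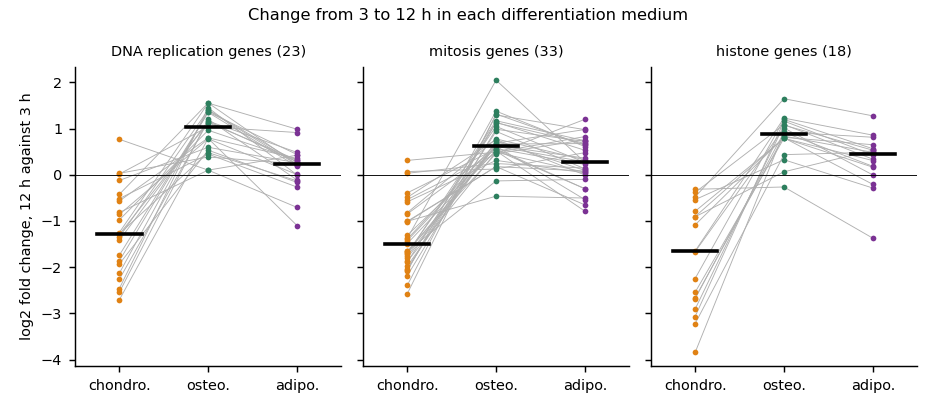
Log2 fold change from 3 to 12 h (vertical axis) in chondrogenic, osteogenic and adipogenic medium for the tested DNA replication (23), mitosis (33) and histone (18) genes, with grey lines joining a gene across media and black bars at the medians. The medians lie at -1.28, -1.49 and -1.66 in chondrogenesis and at 1.04, 0.62 and 0.88 in osteogenesis.

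Of 30 tested genes of ribosome biogenesis (104 on the list, 46 in the table) 1, Rrp1b, fell (3.33%, against 5.94% of all genes) and none rose. All 30 had a log2 fold change below 0, against 2471 of all 4363, with a median of -0.50 on CPM and of -0.32 to -0.40 under the other scalings. Rrp1b, a nucleolar protein of ribosomal RNA processing, was at 305, 314 and 292 CPM and then at 116, 120.3 and 120.2 CPM (log2 fold change -1.34, SE 0.09, adjusted p = 4.14e-12), with no overlap. Ddx18, a nucleolar helicase, had 222 and 126 CPM (log2 fold change -0.81, SE 0.11, adjusted p = 2.46e-06), and Npm1, nucleophosmin, 305 and 235 CPM (log2 fold change -0.38, SE 0.15, adjusted p = 0.0636).

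Of 18 tested collagen processing genes (37 on the list, 22 in the table) 2 rose and none fell, 16 had a log2 fold change above 0, against 1860 of all 4363, and the median was 0.57. Creb3l1, a membrane-bound TF of the ER that drives collagen secretion, was at 709, 685 and 657 CPM at 3 h and 1851, 2378 and 1673 CPM at 12 h (log2 fold change 1.51, SE 0.18, adjusted p = 8.81e-08). Sec23a, a COPII coat subunit, was at 8.99, 5.28 and 9.59 CPM and then at 22.7, 22.9 and 24.6 CPM (log2 fold change 1.48, SE 0.25, adjusted p = 3.28e-05). The 12 h samples of both were well above the highest 3 h sample. Under the size threshold were P3h1, a prolyl 3-hydroxylase (572 and 1089 CPM, log2 fold change 0.93, SE 0.15, adjusted p = 3.28e-05), Sec24d, the partner of Sec23a (1241 and 2192 CPM, 0.82, SE 0.15, adjusted p = 8.69e-05), and Lox, lysyl oxidase (49.4 and 84.7 CPM, 0.77, SE 0.26, adjusted p = 0.0285). Serpinh1, the collagen chaperone HSP47, had 1769, 2076 and 1617 CPM and 2611, 2762 and 2894 CPM, and its change was not called (log2 fold change 0.60, SE 0.29, adjusted p = 0.151). With edgeR and with quantile normalization 5 of the 18 rose.

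Of 54 tested genes of ER folding, translocation and vesicle coats (102 on the list, 65 in the table), which include Sec23a and Sec24d of the list above, Sec23a and Kdelr2 rose (3.70%, against 1.74% of all genes) and none fell. Of the 54 log2 fold changes 44 were above 0 and 10 below, and the median was 0.28. Kdelr2, a receptor that returns ER proteins from the Golgi, was at 49.0, 54.0 and 43.1 CPM and then at 93.9, 152 and 95.2 CPM (log2 fold change 1.17, SE 0.26, adjusted p = 0.000922). Its second 12 h sample stood above the other 2, and without that sample the gene missed the size threshold (0.95, adjusted p = 0.0149). The 17 vesicle coat genes had the highest median of the roles (0.40), with Copb1 at 0.68 (SE 0.11, adjusted p = 3.29e-05) and Copa at 0.53 (SE 0.12, adjusted p = 0.00101) on the log2 scale. Hspa5, the ER chaperone BiP, had 5903, 6444 and 6012 CPM and 8101, 9416 and 7762 CPM (log2 fold change 0.46, SE 0.18, adjusted p = 0.0619).

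Among 23 tested genes of collagens and other structural matrix (70 on the list, 33 in the table) 4 rose, none fell and the median was 0.22. None of the 4 was a collagen. Besides Lama1 they included the glycoproteins Tgfbi, an adhesion protein named for its induction by TGF-beta, at 64.6, 67.4 and 48.7 CPM and then 154, 187 and 156 CPM (log2 fold change 1.45, SE 0.30, adjusted p = 0.000548), and Postn, periostin, at 0.899, 0.44 and 0.123 CPM and then 4.91, 1.40 and 3.33 CPM (log2 fold change 1.44, SE 0.29, adjusted p = 0.000335). Postn was at or below 1 CPM in all samples at 3 h, whereas Tgfbi was well above the floor throughout. The basement membrane protein Nid1 had 5520.3 and 7954 CPM (log2 fold change 0.53, SE 0.13, adjusted p = 0.00289), and Col5a1 13.4 and 21.0 CPM (log2 fold change 0.61, SE 0.24, adjusted p = 0.0668).

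No tested cartilage gene was called higher. Sox9, the master regulator of chondrocytes, was at 622, 627 and 561 CPM at 3 h and 632, 718 and 564 CPM at 12 h, and the samples overlapped (log2 fold change 0.08, 95% interval -0.22 to 0.37, SE 0.14, adjusted p = 0.794), with the sign turning without the second 12 h sample (-0.0126). Before induction it was at 46.6, 46.8 and 50.8 CPM, so its samples at both times were far above 0 h. Col2a1, type II collagen, was listed at 0 in all 6 samples, Acan, aggrecan, had 0.150 CPM in 1 of the 3 h samples and was listed at 0 in the other 5, and Comp, a cartilage matrix protein, had 0, 0.881 and 0.738 CPM and 0.144, 0 and 0 CPM. Of 47 cartilage genes 29 were in the table and 11 of these were at 0 in all 6 samples. Of the 9 tested none rose and Runx3 fell. Runx3, a Runt-family TF, was at 6.74, 6.90 and 7.74 CPM and then at 4.04, 2.96 and 1.58 CPM (log2 fold change -1.12, SE 0.32, adjusted p = 0.00939), a call that was lost without the third 12 h sample (-0.86, adjusted p = 0.0849) and with edgeR (-1.21, adjusted p = 0.0999). The call of Runx3 was also lost with quantile normalization (-0.96, adjusted p = 0.0218) and with a pseudocount of 0.1 (-1.38, adjusted p = 0.220). Runx2 was not in the table, and Pparg, the regulator of adipocytes, was listed at 0 in all 6 samples.

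Of 13 tested genes of glycosaminoglycan synthesis (48 on the list, 22 in the table) Has2 rose and Sulf1 fell, and with edgeR Hs6st2 fell too (-3.90, adjusted p = 0.0495). Sulf1, which removes 6-O-sulfates from heparan sulfate outside the cell, was at 22.9, 27.6 and 32.9 CPM and then at 5.34, 5.61 and 6.81 CPM (log2 fold change -2.05, SE 0.27, adjusted p = 8.11e-07), with no overlap. Cemip, which promotes hyaluronan breakdown, had 2094 and 1698 CPM (log2 fold change -0.31, SE 0.13, adjusted p = 0.0931), and Chsy1, a chondroitin synthase, 1324 and 1392 CPM (log2 fold change 0.07, SE 0.11, adjusted p = 0.735). Neither was called. Of 20 tested proteases and inhibitors (62 on the list, 35 in the table) Adamts4 and Plau rose and none fell. Adamts1, another aggrecanase of the family, had 4541, 5032 and 4669 CPM and 2899, 3056 and 2683 CPM (log2 fold change -0.72, SE 0.14, adjusted p = 0.000226) and was not called, and the collagenase Mmp13 had a mean of 0.363 CPM at 3 h and was listed at 0 at 12 h.

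Signalling genes changed in both directions. Of 22 tested genes of the TGF-beta, activin and BMP pathway (77 on the list, 37 in the table) 2 rose and 4 fell, against 1.74% and 5.94% of all genes. Among the ligands Inhbb, the beta B chain of inhibin and activin, fell from 248, 246 and 229.6 CPM to 107, 129 and 108 CPM (log2 fold change -1.07, SE 0.16, adjusted p = 4.25e-06), a change that was just under the size threshold with edgeR (-0.98, adjusted p = 2.80e-06). It was also under that threshold with quantile normalization (-0.94) and median-ratio scaling (-0.97). Tgfb1 itself was at 399, 378 and 368 CPM and then at 336, 411 and 329 CPM, and the samples overlapped (log2 fold change -0.10, 95% interval -0.38 to 0.19, SE 0.14, adjusted p = 0.714), with the sign turning under edgeR (0.0062) and median-ratio scaling (0.0047). Tgfbr3, the co-receptor betaglycan, fell from 304, 323 and 297 CPM to 123, 141 and 120.4 CPM (log2 fold change -1.26, SE 0.10, adjusted p = 5.38e-11), and Nog, the BMP antagonist noggin, from 29.1, 29.5 and 26.6 CPM to 5.78, 4.83 and 5.07 CPM (log2 fold change -2.24, SE 0.41, adjusted p = 0.00013). Both fell with no overlap. Of the targets Id3, a dominant negative helix-loop-helix factor induced by BMP, rose from 86.6, 93.5 and 80.8 CPM to 288, 287 and 274 CPM (log2 fold change 1.69, SE 0.20, adjusted p = 8.80e-08), whereas Snai2, a zinc finger TF of mesenchymal cells, fell from 15.4, 18.3 and 16.1 CPM to 2.60, 3.90 and 4.44 CPM (log2 fold change -1.94, SE 0.28, adjusted p = 3.96e-06). Id3 had been higher still before induction, at a mean of 714 CPM.

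Of 17 tested immediate-early and MAPK feedback genes (70 on the list, 24 in the table) 2 rose and 5 fell, or 3 with edgeR. Jun, a subunit of AP-1, was at 14.5, 14.8 and 16.1 CPM at 3 h and 3.76, 3.74 and 3.64 CPM at 12 h (log2 fold change -1.78, SE 0.30, adjusted p = 4.06e-05). Klf4, a zinc finger TF, went from 410.4, 424 and 404 CPM to 171, 173 and 179 CPM (log2 fold change -1.24, SE 0.21, adjusted p = 4.44e-05), and Dusp10, a phosphatase of p38 and JNK, from 47.4, 50.2 and 50.8 CPM to 14.7, 18.1 and 12.8 CPM (log2 fold change -1.65, SE 0.15, adjusted p = 1.54e-09). The samples of these 3 genes did not overlap and varied little within a time. Dusp4, a phosphatase of ERK, rose from 15.7, 17.5 and 14.8 CPM to 31.1, 42.5 and 33.7 CPM (log2 fold change 1.11, SE 0.21, adjusted p = 0.000233), and was just under the size threshold without the second 12 h sample (0.98, adjusted p = 0.00359). The other 2 falls were Fgf18, a growth factor of cartilage, at a mean of 4.24 and then 0.974 CPM (log2 fold change -1.40, adjusted p = 5.77e-06, and -2.01, adjusted p = 0.0523 with edgeR), and Klf5 at 30.2 and then 14.5 CPM (log2 fold change -1.04), which missed the size threshold without the third 3 h sample (-0.97, adjusted p = 0.000276) or the first or second 12 h sample (-0.90, adjusted p = 0.000443, and -0.97, adjusted p = 0.000241). Klf5 missed the size threshold also with quantile normalization (-0.80), median-ratio scaling (-0.94) and edgeR (-0.96). The other rise was Plau.

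Of 22 tested cytokine and inflammatory genes (72 on the list, 34 in the table) 1 rose and 2 fell, against 1.74% and 5.94% of all genes, and with edgeR 2 rose and 5 fell. The genes called with edgeR alone were Relb (log2 fold change 1.56), an NF-kappa-B subunit, Csf2 (-4.19), the cytokine GM-CSF, and the chemokines Cxcl2 (-3.14) and Cxcl3 (-3.94). Il1rl1, the receptor of interleukin-33, fell from 1034, 1124 and 1092 CPM to 271, 254 and 332 CPM (log2 fold change -1.93, SE 0.36, adjusted p = 0.00015), and Tnfrsf11b, osteoprotegerin, from a mean of 105 to 30.2 CPM (log2 fold change -1.76, SE 0.19, adjusted p = 3.63e-08). Both were well above the floor at both times. Socs1, an inhibitor of JAK kinases, rose from a mean of 1.08 to 3.51 CPM (log2 fold change 1.17, adjusted p = 0.00799), and was not called without the second 3 h sample (0.87, adjusted p = 0.086) or the second 12 h sample (0.98, adjusted p = 0.0551). Fitted on the 6 samples alone it was not called either (adjusted p = 0.0513). Ccl2, a chemokine for monocytes, had 813 and 1111 CPM (log2 fold change 0.43, adjusted p = 0.435).

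Of 27 tested Wnt and Notch genes (78 on the list, 44 in the table) Wisp2 rose and Wnt2b, Lef1, Notch1 and Notch3 fell, all at low levels. The receptor Notch3 was at 4.95, 2.64 and 3.32 CPM and then at 0.578, 0.467 and 0.634 CPM (log2 fold change -1.54, SE 0.30, adjusted p = 0.000234), and Notch1 at 3.45, 3.23 and 2.34 CPM and then at 0.578, 0.467 and 0.792 CPM (log2 fold change -1.31, SE 0.30, adjusted p = 0.00177). Their samples did not overlap. Lef1, a TF of Wnt signalling, fell from a mean of 2.02 to 0.35 CPM (log2 fold change -1.16), and was not called with edgeR (-2.35, adjusted p = 0.0752). Wisp2, a secreted CCN protein, rose from 1.32 to 3.98 CPM (log2 fold change 1.07), and was not called without the third 3 h sample (0.97, adjusted p = 0.05) or the second 12 h sample (0.83, adjusted p = 0.0818). With a pseudocount of 0.1 neither Wisp2 (1.49, adjusted p = 0.174) nor Lef1 (-2.33, adjusted p = 0.0633) was called. Of 13 tested genes of the IGF axis and other growth factors (46 on the list, 28 in the table) Igfbp5 rose and no gene fell. Igfbp3 and Igfbp6, other binding proteins of the family, had log2 fold changes of -0.39 and -0.07.

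Of 27 tested genes of amino acid synthesis and ATF4 targets (72 on the list, 34 in the table) 3 (11.1%) fell and none rose, against 5.94% of all tested genes that fell. Chac1, which degrades glutathione and is induced in ER stress, was at 52.7, 51.5 and 47.0 CPM and then at 11.0, 10.9 and 10.9 CPM (log2 fold change -2.10, SE 0.18, adjusted p = 1.87e-10). Slc7a5, the transporter LAT1 for large neutral amino acids, was at 1123, 1162 and 1101 CPM and then at 415, 463 and 396 CPM (log2 fold change -1.41, SE 0.17, adjusted p = 1.15e-07). Neither overlapped. Phgdh, the first enzyme of serine synthesis, fell from a mean of 62.1 to 25.5 CPM (log2 fold change -1.24), a call lost with quantile normalization (-0.99, adjusted p = 4.38e-06). Atf4, the TF that names the list, had 1003 and 902 CPM (log2 fold change -0.16, SE 0.13, adjusted p = 0.46). Of 22 tested genes of cholesterol and fatty acid synthesis (54 on the list, 29 in the table) 1 rose on CPM and none fell. Scd2, a fatty acid desaturase, had 5857, 6162 and 5616 CPM and 11612, 12275 and 11295 CPM with no overlap (1.99-fold higher in mean, SE 0.12, adjusted p = 2.88e-07), just short of the size threshold, and the list counted 2 rises with quantile normalization, median-ratio scaling and edgeR.

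Of 25 tested glycolysis and hypoxia-responsive genes (50 on the list, 34 in the table) Egln3, a prolyl hydroxylase of hypoxia-inducible factors, fell from 5.84, 8.95 and 7.13 CPM to 1.59, 2.03 and 2.69 CPM (log2 fold change -1.42, SE 0.23, adjusted p = 2.06e-05). Of 31 tested actin, myosin and serum response factor targets (60 on the list, 38 in the table) Ankrd1, a muscle ankyrin repeat protein, fell from 8.39, 11.3 and 9.71 CPM to 1.73, 2.65 and 2.69 CPM (log2 fold change -1.69, SE 0.25, adjusted p = 4.72e-06), and with edgeR Des, desmin, did as well (-1.66, adjusted p = 0.0428). No other member of these 2 lists was called on CPM. Among 33 respiratory chain genes (median -0.03, and 0.04 with edgeR), 16 glucocorticoid-responsive genes (median -0.21), 7 circadian clock genes (median 0.02), 6 osteoblast markers (median -0.27) and 5 stromal markers (median -0.44) no gene was called with limma, and with edgeR none was either. Tsc22d3, the glucocorticoid-induced leucine zipper, was at 145, 138 and 111 CPM and then at 103, 107 and 97.7 CPM (log2 fold change -0.35, SE 0.15, adjusted p = 0.11), without overlap but past neither the size nor the adjusted p threshold. Of 8 tested adipocyte markers 1 fell, Lpl, lipoprotein lipase, from 243, 259.8 and 238 CPM to 83.3, 78.2 and 96.8 CPM (log2 fold change -1.51, SE 0.32, adjusted p = 0.000646). The 3 tested leukocyte, 2 endothelial and 1 erythroid markers were not called.

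**Figure D4:**
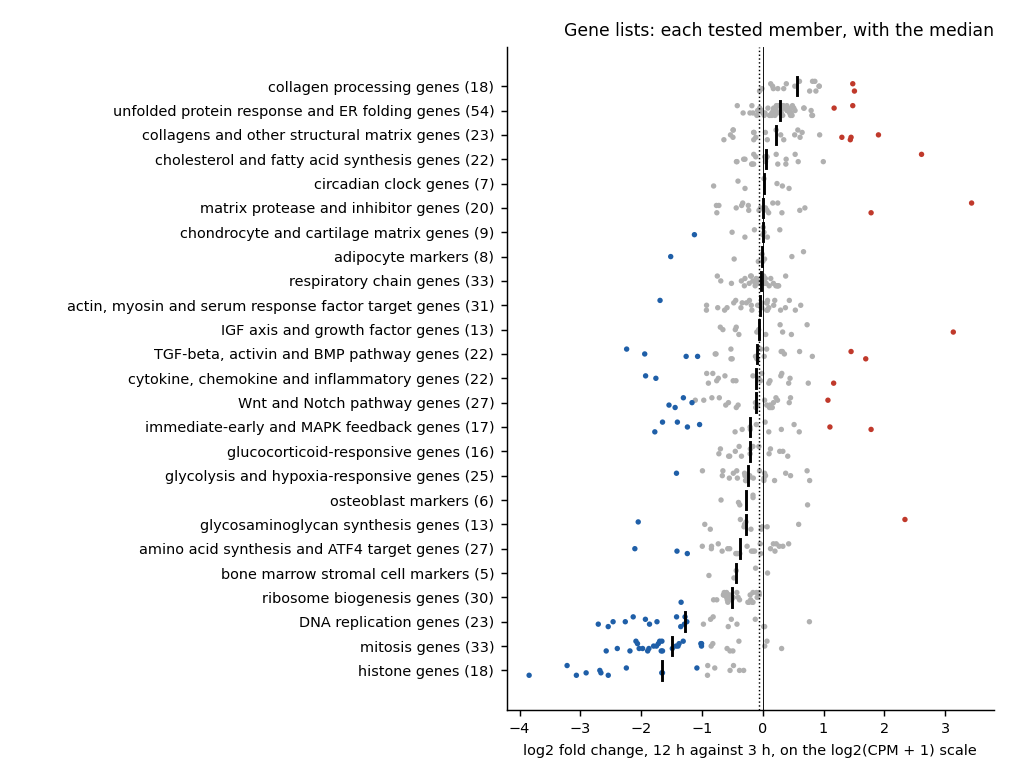
Log2 fold change from 3 to 12 h of chondrogenesis (horizontal axis) of each tested member of the lists with 5 or more tested genes, in red where the gene rose, blue where it fell and grey where it was not called, with the list's median as a black bar and the median of all genes (-0.07) as a dotted line. DNA replication, mitosis and histone genes lie at the lower end and collagen processing genes at the upper end.

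Of the 131 tested TFs, taken from the factors that the study had selected in these same samples and so no independent evidence of a direction, 4 rose and 23 fell (median log2 fold change -0.25). The rises were Creb3l1, Id3, Hbp1 and AABR07060287.1. Hbp1, an HMG-box factor known to restrain cell-cycle entry, was at 178, 159 and 170.0 CPM and then at 463, 466 and 528 CPM (log2 fold change 1.52, SE 0.09, adjusted p = 1.11e-13), without overlap, and had been at a mean of 851 CPM before induction. It also rose in osteogenesis (1.16) and in adipogenesis (2.63, difference -1.12, SE 0.13, adjusted p = 8.40e-08). With edgeR, with quantile normalization and with a pseudocount of 0.1, 7 factors rose. The falls included members that are not sequence-specific TFs. Rab24, a small GTPase, fell from 35.2, 36.0 and 33.4 CPM to 2.60, 5.30 and 4.12 CPM (log2 fold change -2.88, SE 0.26, adjusted p = 1.02e-09), the centromere histone Cenpa from 39.1, 43.7 and 33.7 CPM to 13.7, 9.82 and 11.4 CPM (log2 fold change -1.66, SE 0.23, adjusted p = 1.62e-06), and Hmgb2, a chromatin protein, from a mean of 3.15 to 0.297 CPM (log2 fold change -1.65). Among developmental factors Foxc2 fell from 23.7, 17.9 and 15.2 CPM to 5.49, 7.79 and 5.07 CPM (log2 fold change -1.48, SE 0.22, adjusted p = 5.83e-06), while Prdm16 (2.75 to 0.355 CPM, -1.46), Tfcp2l1 (2.09 to 0.0963 CPM, -1.49), Pax8 (8.94 to 3.29 CPM, -1.23) and Mafa (5.52 to 1.68 CPM, -1.25) fell at low levels. The calls of Pax8 (-1.44, adjusted p = 0.066) and Mafa (-1.61, adjusted p = 0.131) were lost with a pseudocount of 0.1. Of the 121 named genes called, 105 were called in every fit with 1 library left out.

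Compared with the other media over the same interval, the chondrogenic change differed for 616 genes from osteogenesis (14.1%), of which 168 were above (3.85%) and 448 below (10.3%), and for 623 genes from adipogenesis (14.3%), of which 277 were above (6.35%) and 346 below (7.93%). Without the third 3 h osteogenic sample 151 were above and 480 below, and without the first 12 h adipogenic sample 309 were above and 378 below. Has2 had the largest difference above osteogenesis. It was at a mean of 643 CPM at 3 h and 51.9 CPM at 12 h of osteogenesis and of 416 and 58.5 CPM in adipogenesis, and so fell in both while it rose in chondrogenesis (difference from osteogenesis 5.93, SE 0.38, adjusted p = 3.05e-13, and from adipogenesis 5.30, SE 0.38, adjusted p = 7.00e-12, on the log2 scale). At 12 h its level in chondrogenesis was several times that in the other media, and at 3 h it was far lower. Dusp4 had a mean of 379 and 83.3 CPM in osteogenesis and of 257 and 4.85 CPM in adipogenesis, where it fell (difference from adipogenesis 6.60, SE 0.30, adjusted p = 4.02e-16). Plau likewise fell from 187 to 8.37 CPM in adipogenesis (difference 6.11, SE 0.47, adjusted p = 2.53e-11). In the other direction LOC102549061 went from 454, 459.6 and 166 CPM to 1377, 1459 and 1268 CPM in osteogenesis (difference -5.62, SE 0.37, adjusted p = 5.26e-13), and Hist1h1a from 125, 126 and 196 CPM to 252, 312 and 269.9 CPM (difference -4.77, SE 0.27, adjusted p = 2.51e-14). In neither gene did the samples of the times overlap. LOC102549061 rose there (log2 fold change 2.06, and 1.58 without the third 3 h sample), whereas Hist1h1a, at 0.92, was short of the size threshold and passed it without that sample (1.14, adjusted p = 5.46e-05). Egln3 rose from 29.9 to 244 CPM in osteogenesis and fell from 43.4 to 5.44 CPM in adipogenesis (difference from osteogenesis -4.41, SE 0.32, adjusted p = 5.91e-12).

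Some genes were called in the same direction in several media. The falls of Sulf1, Il1rl1, Slc7a5 and Chac1 were also called in osteogenesis (log2 fold changes of -1.11, -1.81, -2.08 and -1.49) and in adipogenesis (-1.84, -3.72, -3.46 and -5.10), and Slco2a1 fell in both media too (-2.61 and -2.16). Without the library that stood apart in each medium these calls held except that of Sulf1 in osteogenesis (-0.99, adjusted p = 0.0157). Creb3l1 and Id3 rose in adipogenesis as well (1.30 and 1.41), and in osteogenesis their changes were -0.06 and -0.46, not called. Among the 15 largest rises, Igfbp5 (6.10), Rnf144a (2.96), Ptgir (1.68), Plxdc2 (1.38) and Mab21l3 (1.23) also rose in adipogenesis. Has2 (-2.96), Plau (-4.33) and Fndc5 (-1.18) fell there. Igfbp5 rose more there than in chondrogenesis (difference -2.97, SE 1.04, adjusted p = 0.039), to 767, 166 and 174 CPM at 12 h. The first of these samples was the one that stood apart. Over all calls, which here share no samples between the media, 62 of the 259 falls (23.9%) were among the 205 genes that rose in osteogenesis (30.2% of those) and 33 (12.7%) among the 136 that fell (24.3% of those), against 4.7% and 3.12% of all tested genes called in these directions. In adipogenesis 8 of the falls (3.09%) were among 224 rises (3.57% of those) and 60 (23.2%) among 341 falls (17.6% of those), against 5.13% and 7.82% of all genes. Of the 76 rises, 6 (7.89%) also rose in osteogenesis (2.93% of its rises) and 4 (5.26%) fell (2.94% of its falls), and 15 (19.7%) rose in adipogenesis (6.70% of its rises) and 7 (9.21%) fell (2.05% of its falls). Without the third 3 h osteogenic sample 68 of the falls were among 237 rises and 28 among 124 falls, and of the rises 7 rose and 3 fell. Without the first 12 h adipogenic sample 9 of the falls were among 281 rises and 60 among 389 falls, and of the rises 17 rose and 7 fell.

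The change from 0 to 72 h of chondrogenesis, measured in other samples, was called for 507 rises (11.6%) and 278 falls (6.37%). Of the 76 genes that rose between 3 and 12 h, 46 (60.5%) were among the rises from 0 to 72 h (9.07% of those) and 5 (6.58%) among the falls (1.80% of those). Of the 259 falls, 45 (17.4%) were among the rises (8.88% of those) and 43 (16.6%) among the falls (15.5% of those). Igfbp5 went from 3.87, 5.99 and 6.67 CPM at 0 h to 33332, 32936 and 31633 CPM at 72 h, and Tgfbi from 14.5, 13.7 and 16.2 CPM to 1616, 1559 and 1485 CPM. Both were thus at intermediate levels at 12 h. Hist1h1a was at 28.5, 29.9 and 29.3 CPM at 0 h and 32.1, 28.1 and 26.2 CPM at 72 h, with its samples at 3 h above both and those at 12 h below both. Snai2, which fell to a mean of 3.64 CPM at 12 h, was at a mean of 84.1 CPM at 72 h, and Jun at 26.3 CPM, and in both genes every 72 h sample was above all samples at 3 and 12 h.

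**Figure D5:**
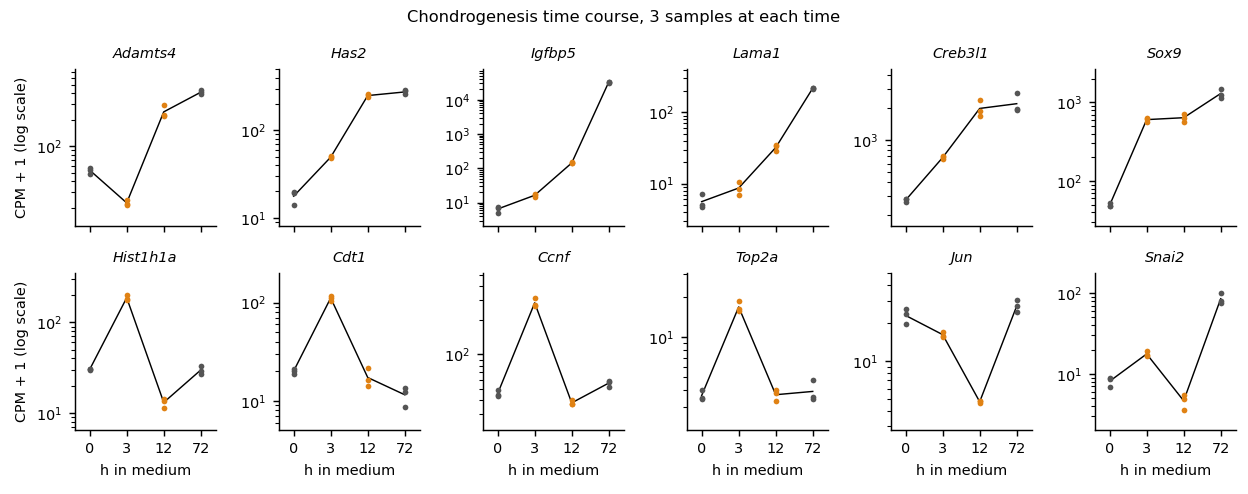
CPM + 1 (log axes) of 12 named genes at 0, 3, 12 and 72 h of chondrogenesis, with 1 point for each of 3 samples, a line through the means, and the compared times in orange. Adamts4, Has2, Igfbp5, Lama1 and Creb3l1 rise between 3 and 12 h, Sox9 is level, and the 6 genes of the lower row are lower at 12 h than at 3 h, with Cdt1 lower still at 72 h.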

How the data were processed

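RNA was measured in 30 samples, 10 groups of 3, of which the CH_3h and CH_12h samples were compared. Trimmomatic, HISAT2 and StringTie are named in the submitters' processing notes; versions, genome build, annotation and counting are not given in the sources used here. The authors deposited values named FPKM that were read as CPM, since 100% of them were whole multiples (within 0.05 reads) of 1 step per sample; the reads and totals were recovered from the step. The planned test was limma on log2(CPM + 1).

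Each sample had 10803 values under 9999 names, 729 of them on more than 1 row and summed. A gene entered the tests if 3 or more of the 30 samples reached 1 CPM, which 4363 did, and these were fitted by limma 3.58.1 (trend) in R 4.3.3 on log2(CPM + 1), in 1 model of 10 groups without covariates, with Benjamini-Hochberg adjustment. A gene was called when it changed by 1 log2 unit or more with an adjusted p under 0.05. The change was compared with that of other media as a difference of contrasts. Named genes were the 15 largest rises and falls whose samples did not overlap, list members past the threshold, 8 genes listed in the design, and the 6 largest differences from each medium. Some items are not reported here. Further genes named for context were chosen after their values were seen. The members and lists were chosen with earlier results of these data known.

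Intervals and the floor of 3 reads cover counting error only, since no molecular identifiers separate PCR copies from molecules. The alternatives tried were median-ratio scaling, quantile normalization, a pseudocount of 0.1, omission of the filter, an equal sum over listed genes, the 6 samples alone, the replicate number as a block, edgeR 4.0.16 on the recovered reads, shared names tested apart, and each of the 6 chondrogenic libraries left out. Leaving out each osteogenic or adipogenic library of 3 and 12 h was added after seeing the data. Both tools were tested on simulated data. Tables and figures used Python 3.11.15, pandas 2.3.3 and matplotlib 3.10.9.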

Additional observations from a re-analysis of the deposited data

Results flagged for a closer look

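The change from 3 to 12 h differed between chondrogenesis and osteogenesis for 616 genes and between chondrogenesis and adipogenesis for 623 genes, by the limma test of the difference itself. The genes with the largest differences from osteogenesis were Has2 (5.93 on the log2 scale), LOC102549061 (-5.62), Hist1h1a (-4.77), Ccr1 (-4.68), Cyp3a9 (-4.47) and Egln3 (-4.41). From adipogenesis they were Dusp4 (6.60), Plau (6.11), Has2 (5.30), Hist1h1a (-4.66), Cxcl6 (-4.35) and LOC102549061 (-4.19). Without the third 3 h osteogenic sample, which stood apart, the values for osteogenesis were 6.08, -5.14, -4.98, -4.61, -4.40 and -4.43. Without the first 12 h adipogenic sample those for adipogenesis were 6.45, 6.16, 4.80, -4.66, -4.67 and -4.03, and each stayed past the threshold.

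Cyp3a9 and Cxcl6 were not called in chondrogenesis. Cyp3a9, a cytochrome P450, was at 0, 0 and 0.246 CPM and 0, 0 and 0 CPM there and rose in osteogenesis from 0, 0.316 and 0 CPM to 21.2, 20.3 and 23.0 CPM. Cxcl6, a chemokine for neutrophils, was at 2.70, 2.64 and 3.32 CPM and 1.30, 0.623 and 1.43 CPM (log2 fold change -0.89, adjusted p = 0.407) and rose in adipogenesis from 5.86, 6.77 and 5.95 CPM to 49.3, 94.7 and 101 CPM. Ccr1 fell in chondrogenesis and in adipogenesis (log2 fold change -2.34) and rose in osteogenesis from 83.5, 93.1 and 76.1 CPM to 222, 222 and 208 CPM. The levels of Has2, Dusp4 and Plau were already apart at 3 h, with means of 48.3, 16.0 and 8.10 CPM in chondrogenesis and 416, 257 and 187 CPM in adipogenesis.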

How the results depend on the processing

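The count of genes that rose was 76 on CPM, 133 with quantile normalization and 144 with edgeR, and the count of genes whose change lay above that in osteogenesis was 168, 261 and 278. The other counts of these comparisons over all genes, in total and by direction, stayed within 1.5 times the reported ones under every alternative. Counts within gene lists moved by more in several lists, such as from 2 to 5 for the collagen processing rises, 4 to 7 for the TF rises and 2 to 5 for the cytokine falls with edgeR. Between 3 and 12 h all calls ranged from 323 to 419 and the falls from 215 to 314, and the rises from 70 to 101 outside quantile normalization and edgeR. With each of the 6 chondrogenic libraries left out in turn there were 338 to 351 calls, 70 to 92 rises and 255 to 271 falls. Of the 76 rises and 259 falls, 74 and 229 were also called with edgeR, 76 and 214 with quantile normalization, and 58 and 238 without the second 12 h sample. Of 126 named genes, 101 kept both their sign and their side of the threshold under every alternative in which they were tested. The sign turned for Sox9 without the second 12 h sample (-0.0126, against 0.16 without the third, the range over libraries left out) and for Tgfb1 with median-ratio scaling (0.0047) and edgeR (0.0062), none of them called. Leaving out each osteogenic or adipogenic library of 3 and 12 h, chosen after seeing the data, gave 579 to 632 differences from osteogenesis and 572 to 687 from adipogenesis. The replicate number shared by the samples of both times was added as a block and left 335 calls, and the deviations of samples with the same number had correlations of -0.03, 0.07 and 0.07, so the numbers gave no sign of pairing and no call changed. The cause of these differences was not tested. A library of 6312409 reads puts 3 reads at 0.475 CPM, and changes of genes below that level were not detectable at this depth.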
